A study of Mus musculus with 9 samples.

Results

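The 45S ribosomal RNA precursor Rn45s and 5 other noncoding RNAs, namely Rmrp, Rpph1, Malat1, Neat1 and Terc, were followed through the count table of a mouse embryonic stem cell experiment. They are 6 of the 23366 gene rows in that table, and all 6 were among the 14988 genes that passed a filter on low counts. The 6 were chosen by symbol after their counts in these libraries, and the difference of some of them between the groups, had been seen. Their levels and fold changes are therefore given as descriptions. A count of those called in the test of all genes is given beside the share of all genes called. Nothing is read from it. Total RNA was taken from embryonic stem cells (strain 129 SvJae F1, passage 21) kept in medium with serum and leukaemia inhibitory factor (LIF). Any selection of RNA before sequencing is unstated in the labels. The series holds 9 samples in 3 groups of 3: wild-type cells (WT), cells without the histone deacetylase gene Sirt6 (Sirt6-KO), and wild-type cells without glucose, which were not analysed here. Neither the way in which Sirt6 was disrupted nor whether the knockout cells are 1 clone is known from the labels. Whether the replicates came from separate cultures is not stated, so a p-value covers the spread of these libraries alone, which may be technical.

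The 45S precursor is made by RNA polymerase I in the nucleolus and is cut into the mature ribosomal RNAs of both ribosomal subunits. Rmrp and Rpph1 are made by RNA polymerase III and are the RNA parts of related enzymes: RNase MRP, which cuts the ribosomal precursor, and RNase P, which trims the 5′ end of transfer RNAs. Terc is the template RNA of telomerase, Malat1 is a nuclear speckle RNA, and Neat1 is the scaffold of paraspeckles; RNase P also cuts the 3′ ends of Malat1 and Neat1.

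Sequences are shown where they bear on how reads could be assigned or on what the RNAs share; all come from GENCODE M21 transcripts (GRCm38, not the mm9 build of the counts), and all shown lie on the minus strand. Rpph1 (chromosome 14, 319 bases) has a near copy in the table, Rprl3 (chromosome 8, 290 bases), and reads from such copies can be split between them. The first 250 bases of Rpph1 and the 229 bases of Rprl3 aligned to them follow, with capitals for bases that differ or have no partner.
Rpph1: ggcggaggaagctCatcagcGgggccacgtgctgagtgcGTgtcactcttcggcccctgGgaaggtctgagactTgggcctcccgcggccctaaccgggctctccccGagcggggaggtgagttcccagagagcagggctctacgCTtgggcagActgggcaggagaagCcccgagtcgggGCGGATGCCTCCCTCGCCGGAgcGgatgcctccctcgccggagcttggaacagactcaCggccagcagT
Rprl3: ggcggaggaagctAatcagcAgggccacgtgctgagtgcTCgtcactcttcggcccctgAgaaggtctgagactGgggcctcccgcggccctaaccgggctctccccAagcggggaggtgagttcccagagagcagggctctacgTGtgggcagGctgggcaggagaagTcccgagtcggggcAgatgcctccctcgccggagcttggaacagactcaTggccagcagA

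Over this stretch 215 bases were identical and 14 differed (93.89% identity), and 21 bases of Rpph1 had no partner. The longest repeat within Rpph1 was 23 bases. Over the full length Rprl3 shared 88.17% of its aligned bases with Rpph1, with a longest common run of 37 bases. Rmrp shared 63.36% and no run longer than 9 bases.

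Terc (chromosome 3, 423 bases) carries the template for the telomere repeat near its 5′ end; its first 120 bases are shown with the template CCTAACCC in capitals, which begins at base 28. This motif, searched on the RNA strand, was present in the first 120 bases of 50 of 51034 transcripts, 1 per gene (0.098%).
Terc: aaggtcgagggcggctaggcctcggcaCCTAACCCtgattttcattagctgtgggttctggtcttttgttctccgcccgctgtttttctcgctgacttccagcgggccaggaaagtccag

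Malat1 (6983 bases) and Neat1 (20771 bases in its long form and 3004 in its short form) are both on chromosome 19, and in place of a poly(A) tail the mature 3′ ends of Malat1 and of the long form of Neat1 form a triple helix of U-rich motifs with an A-rich tract. Bases 6597 to 6701 of Malat1 and 20672 to 20771 of Neat1 are shown because both hold the motifs TTTGCTTTT and AAAAGCAAA, in capitals, each the reverse complement of the other and searched on the RNA strand.
Malat1: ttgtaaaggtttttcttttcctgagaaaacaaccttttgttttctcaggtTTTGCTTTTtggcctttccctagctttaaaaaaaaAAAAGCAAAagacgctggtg
Neat1: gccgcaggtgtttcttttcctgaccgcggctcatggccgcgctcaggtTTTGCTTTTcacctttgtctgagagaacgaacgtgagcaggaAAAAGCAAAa

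Of 43318 transcripts, 1 per gene, 414 (0.956%) held the first motif in their last 400 bases, 433 (1%) held the second, and 9 (0.0208%) held both. A match is a description of the letters only. Rn45s had no transcript in this annotation, so it is given without a length, a chromosome or a sequence.

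Across the 6 libraries, totals ran from 20107037 to 29267115 counts. Sirt6 counts were 348, 341 and 342 in WT and 12, 6 and 6 in Sirt6-KO, in the direction of the labels. All 9 stem cell markers were above 1 CPM (counts scaled to library size) in both groups; the summed level of 12 fibroblast markers, which feeder cells would carry, was 14.1 to 14.4 CPM in WT and 42.4 to 47.3 CPM in Sirt6-KO, with 3 of 12 above 1 CPM in WT and 6 in Sirt6-KO, and Lum at 0 in all 6 libraries. Of the 7 fibroblast markers tested, 6 were higher in Sirt6-KO (edgeR, adjusted p under 0.05). The largest part of the rise was Tagln, at a mean of 2.21 CPM in WT and 21.7 CPM in Sirt6-KO. Col3a1, Postn, Lum, Dcn and S100a4 did not pass the filter on low counts. Of the 9 stem cell markers, 3 were higher and 3 lower in Sirt6-KO by the same test, where 55.7% of all tested genes were called. The lines differed beyond Sirt6: summed over each group, counts of the Y-linked genes were 0 in WT and 191 in Sirt6-KO for Kdm5d, 594 and 7025 for Ddx3y, 560 and 2907 for Uty and 1901 and 6768 for Eif2s3y, and those of Xist were 2929 and 306, so the effect of Sirt6 loss and other differences between the lines cannot be told apart. The knockout libraries stood further apart from each other than the wild-type ones: among 2093 genes averaging 100 CPM or more, the median coefficient of variation was 12.01% in Sirt6-KO and 4.25% in WT. The part of the fibroblast markers, of the line and of this spread in any result was not tested.

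Rn45s was the RNA with the largest count in all 6 libraries, and it took a smaller share of every knockout library than of any wild-type library. Its share of the library total was 9.09%, 9.23% and 7.54% in WT replicates 1 to 3, and 4.91%, 3.30% and 3.71% in Sirt6-KO replicates 1 to 3. The groups did not overlap, and the lowest wild-type share lay above the highest knockout share. The means were 8.62% ± 0.936 and 3.97% ± 0.833 (SD, n = 3), from counts between 746533 and 2525797, so that the 95% Wilson interval of each share reached at most 0.223% of its value to either side; such intervals cover counting error only. Scaled by library size and TMM factor (the trimmed mean of M values), the level was 89897 ± 9553 CPM in WT and 37979 ± 6919 CPM in Sirt6-KO (SD, n = 3), a log2 fold change of -1.24 ± 0.21 (SE), or 2.37-fold lower. The authors' deposited table gives -1.22. In bulk RNA, fewer cells of a type and less RNA per cell cannot be told apart. For Rn45s, any step that selects or removes ribosomal RNA is unstated in the labels. Rows for the mature ribosomal RNAs Rn18s and Rn28s1 were absent from the counts. Whether reads on the Rn45s row came from the precursor or from mature ribosomal RNA cut from it is not known. A lower level of this row is therefore not by itself a lower level of the precursor.

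**Figure D1:**
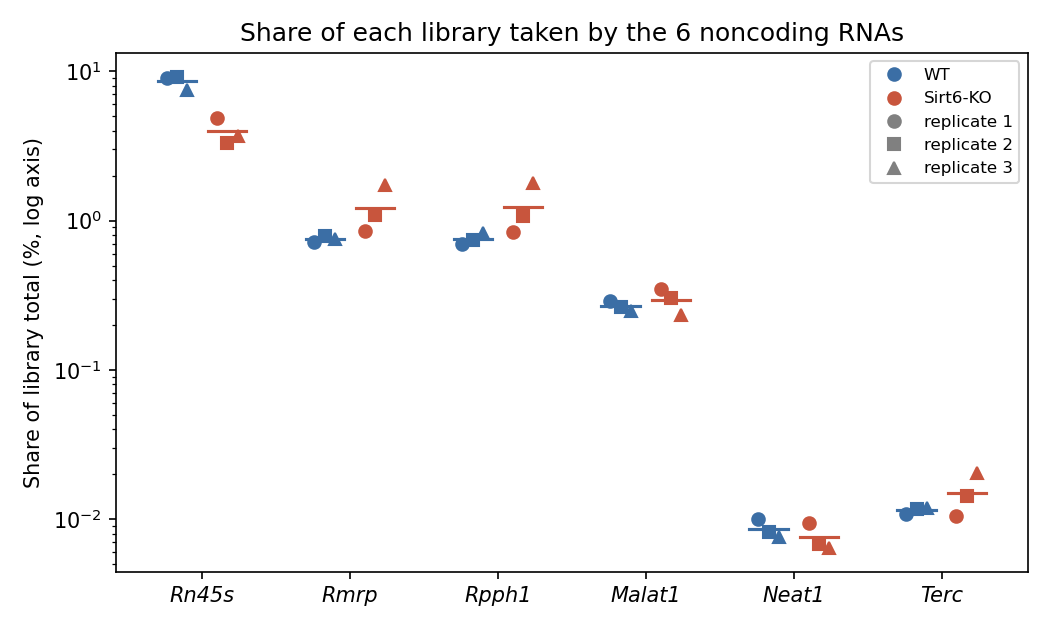
Share of the library total (%, log axis) of each of the 6 RNAs; points are libraries (circle, square and triangle for replicates 1, 2 and 3), bars are group means (n = 3). Rn45s separates the groups, with 7.54% as its lowest wild-type and 4.91% as its highest knockout share, while Malat1, Neat1 and Terc overlap.

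Rmrp and Rpph1, the enzyme RNAs, were each at a mean of 0.75% of the wild-type libraries, and in both the spread lay in the knockout group. The Rmrp share was 0.714%, 0.785% and 0.755% in WT replicates 1 to 3 and 0.846%, 1.09% and 1.72% in Sirt6-KO replicates 1 to 3. The Rpph1 share was 0.693%, 0.737% and 0.820% in WT and 0.835%, 1.07% and 1.79% in Sirt6-KO, in the same order. For both RNAs the knockout shares lay above all wild-type shares, replicate 3 was the highest and replicate 1 was close to the wild-type range. With Rn45s left out of the library totals the Rpph1 groups overlapped, since knockout replicate 1 (0.878%) was then below WT replicate 3 (0.887%). Once scaled by TMM, the groups overlapped: Rmrp was at 7388, 8217 and 7907 CPM in WT and 7793, 10392 and 17312 CPM in Sirt6-KO. Rpph1 was at 7172, 7718 and 8584 CPM in WT and 7686, 10167 and 17987 CPM in Sirt6-KO. Replicate 1 of the knockout lay within the wild-type range in both cases. The fitted log2 fold changes were 0.59 ± 0.25 for Rmrp and 0.61 ± 0.27 for Rpph1 (SE), against 0.55 and 0.56 in the authors' deposited table. Without knockout replicate 3 they were 0.20 and 0.17, and without knockout replicate 1 they were 0.83 and 0.85.

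Terc, at a mean share of 0.0115% in WT and 0.0151% in Sirt6-KO, followed the same order of knockout libraries. Its scaled level was 111, 123 and 125 CPM in WT and 96.8, 136 and 205 CPM in Sirt6-KO, so that the knockout libraries lay on both sides of the wild-type ones. The log2 fold change was 0.29 ± 0.21 (SE); it was -0.06 without knockout replicate 3 and 0.52 without knockout replicate 1. The authors' deposited table gives 0.29.

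Malat1 was at nearly the same mean level in both groups. Its share was 0.290%, 0.264% and 0.247% in WT and 0.350%, 0.303% and 0.232% in Sirt6-KO, and its scaled level was 2999, 2760 and 2590 CPM in WT and 3225, 2881 and 2335 CPM in Sirt6-KO. The knockout libraries held both the highest and the lowest level, and here replicate 3 was the lowest. The log2 fold change was 0.02 ± 0.15 (SE), and it ran from -0.09 to 0.11 when 1 library was left out. Neat1 was at 103, 85.6 and 78.9 CPM in WT and 87.1, 65.0 and 64.1 CPM in Sirt6-KO, with knockout replicate 1 inside the wild-type range. Its log2 fold change was -0.31 ± 0.14 (SE), from counts of 1281 to 2771 per library, which put the 95% Wilson interval of a share at up to 5.48% of its value to either side. It ran from -0.46 to -0.18 when 1 library was left out, with -0.18 without WT replicate 1, and it was 0.34 with the trend on transcript length removed. The authors' deposited table gives 0.02 for Malat1 and -0.30 for Neat1. The counts do not separate the long and short forms of Neat1.

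**Figure D2:**
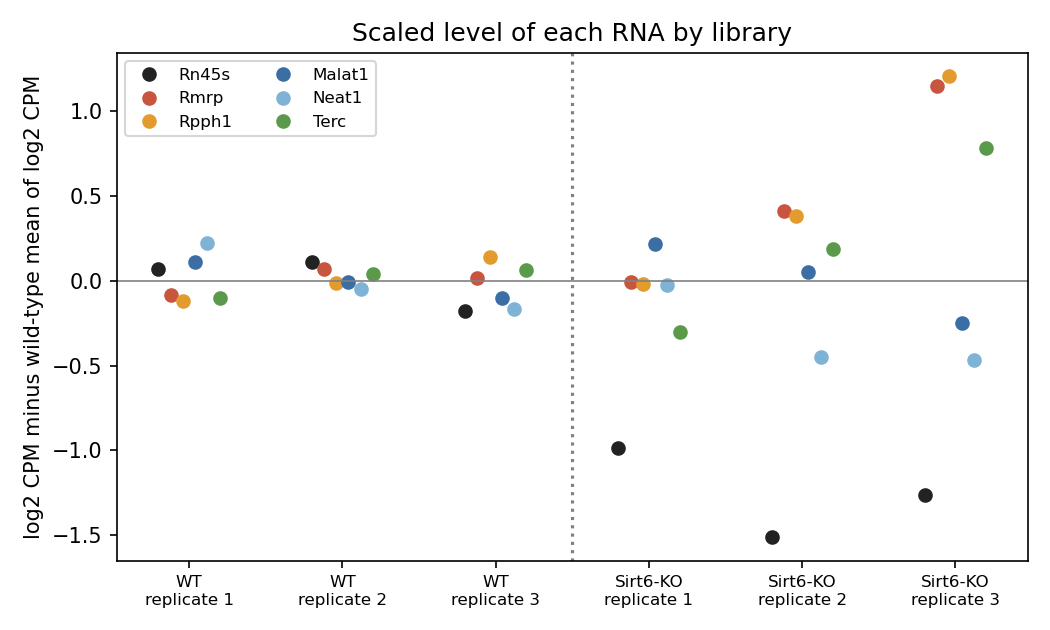
Scaled level of each RNA by library, as log2 CPM minus the wild-type mean of log2 CPM; each point is 1 library and RNA. Rn45s is low in all 3 knockout libraries, and Rmrp, Rpph1 and Terc are highest in Sirt6-KO replicate 3, at 17312, 17987 and 205 CPM.

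Of the 6 RNAs, 1 (Rn45s) was past an adjusted p of 0.05 in edgeR's quasi-likelihood test, where 55.7% of all tested genes were, 27.9% higher and 27.8% lower in Sirt6-KO. The scaled levels did not overlap between the groups for 1 of 6 (Rn45s), against 63.2% of all tested genes, and the shares did not overlap for 3 of 6 (Rn45s, Rmrp and Rpph1, the last only while Rn45s counts toward the total), against 62.6%. Since the RNAs were chosen with this contrast known, nothing is read from these counts. Together the 6 took 10.8%, 11.0% and 9.38% of the wild-type libraries and 6.96%, 5.79% and 7.48% of the knockout libraries. Rn45s made up 84.1%, 83.6% and 80.4% of that sum in WT, and 70.5%, 57.0% and 49.6% in Sirt6-KO. The other 5 took 1.72%, 1.80% and 1.84% of the wild-type libraries and 2.05%, 2.49% and 3.77% of the knockout libraries. As shares of the library total, the sum of the 6 was thus lower in every knockout library, while the sum of the 5 without Rn45s was higher. Most of the 5 is Rmrp and Rpph1, and the levels of both overlapped between the groups once scaled by TMM.

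Per kilobase of transcript, Rmrp and Rpph1 stood far above Malat1 and Terc, and Neat1 was lowest of the 5 RNAs with an annotated length. Rn45s has no annotated length and has no place in this order. The order is a description only, since the selection of RNA is unstated and levels varied between libraries with transcript length. How reads were divided between Rpph1 and its copy Rprl3 is also unstated. Mean levels in WT and Sirt6-KO were 27890 ± 1492 and 42107 ± 17510 CPM per kb for Rmrp and 24528 ± 2234 and 37450 ± 16852 CPM per kb for Rpph1 (SD, n = 3), and these neighbours overlapped. Malat1 was at 399 ± 29.4 and 403 ± 64.3 CPM per kb, and Terc at 283 ± 17.2 and 345 ± 130 CPM per kb; they were apart in WT and overlapped in Sirt6-KO. Neat1 was at 4.30 ± 0.605 and 3.47 ± 0.627 CPM per kb over its long form, and at 29.7 ± 4.18 and 24.0 ± 4.34 CPM per kb if all its reads came from the short form. With either length it was below every library's value for Malat1 and Terc.

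Ratios of counts within a library do not depend on its scaling, but they still carry any trend on transcript length. The Rmrp to Rpph1 ratio was 1.03, 1.06 and 0.921 in WT and 1.01, 1.02 and 0.962 in Sirt6-KO. The groups overlapped, although each RNA varied 2.22-fold (Rmrp) and 2.34-fold (Rpph1) among the knockout libraries. The Malat1 to Rpph1 ratio was 0.418, 0.358 and 0.302 in WT and 0.420, 0.283 and 0.130 in Sirt6-KO, where the groups overlapped. The Terc to Rmrp ratio was 0.0151, 0.0149 and 0.0158 in WT and 0.0124, 0.0131 and 0.0119 in Sirt6-KO, lower in each knockout library. Scaled levels of the groups did not overlap for 63.2% of all tested genes, and ratios of other genes were not examined. Nothing is read from a ratio whose groups stand apart. The Malat1 to Neat1 ratio was 29.1, 32.3 and 32.8 in WT and 37.0, 44.3 and 36.4 in Sirt6-KO, higher in each knockout library; with the trend on transcript length removed the order of their log2 fold changes turned, to 0.23 for Malat1 and 0.34 for Neat1. The Rn45s to Malat1 ratio was 31.4, 35.01 and 30.5 in WT and 14.0, 10.9 and 16.0 in Sirt6-KO. The Rn45s to Rmrp ratio was 12.7, 11.8 and 9.99 in WT and 5.80, 3.02 and 2.16 in Sirt6-KO. Both Rn45s ratios were lower in every knockout library than in any wild-type library. Malat1 had a log2 fold change of 0.02, so the first ratio mainly restates the lower level of Rn45s. Rmrp had one of 0.59, so the second also holds the higher mean of Rmrp. As Rn45s was chosen with this contrast known, the ratios give no separate evidence on it. The near copy Rprl3 kept a ratio to Rpph1 of 0.129, 0.124 and 0.122 in WT and 0.127, 0.126 and 0.118 in Sirt6-KO; the sources used here do not say how the counting divides reads between these copies, so the level of each is uncertain. Rprl2 and Rprl1, with 168 and 26 counts over the wild-type libraries, had far fewer.

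The 3 short RNAs varied among the knockout libraries more than nearly all other abundant genes. The coefficient of variation in Sirt6-KO was 41.6% for Rmrp, 45.0% for Rpph1 and 37.6% for Terc, against 5.35%, 9.11% and 6.09% in WT. Among the 2093 abundant genes, 0.478% varied as much as Rmrp, 0.191% as much as Rpph1 and 1.10% as much as Terc in Sirt6-KO. The abundant genes were not matched to these RNAs on transcript length, with which the spread also went, as given below. Rn45s, Malat1 and Neat1 were matched or passed by 23.7%, 32.2% and 23.9%. Neat1, at means of 89.2 CPM in WT and 72.1 CPM in Sirt6-KO, is not in this set and is compared with more abundant genes. The direction of their spread differed from that of the long RNAs. From knockout replicate 1 to replicate 3 the log2 ratio of scaled levels was 1.15 for Rmrp, 1.23 for Rpph1 and 1.08 for Terc, and -0.47 for Malat1, -0.44 for Neat1 and -0.27 for Rn45s. Across 14829 tested genes with an annotated length, the median of this ratio was 0.85 for the 84 genes of 301 to 500 bases, 0.39 for the 175 genes of up to 300 bases, -0.31 for the 4544 genes of 4001 to 8000 bases and -0.55 for the 37 genes above 16000 bases. Rmrp, Rpph1 and Terc thus lay on the side of the short genes, and Malat1 and Neat1 on the side of the long genes; Rn45s, which has no annotated length, was lowest in replicate 2 and cannot be placed. Rmrp lay above the upper quartile of genes of its length (0.74), Rpph1 lay above that of genes of 301 to 500 bases (1.09), and Terc lay just under it. The summed share of 114 small nucleolar RNA rows, also short, was 0.0870%, 0.105% and 0.101% in WT and 0.126%, 0.116% and 0.162% in Sirt6-KO, with replicate 3 the highest here too. With each library's trend on length removed, a fit added after the data were seen, the log2 fold changes were 0.54 for Rmrp, 0.54 for Rpph1, 0.20 for Terc, 0.23 for Malat1 and 0.34 for Neat1, where the sign of Neat1 changed; this fit used the long form of Neat1. The wild-type libraries held a smaller trend in the same order of replicate numbers. Median deviations from the wild-type mean of log2 CPM, in replicates 1 to 3, were -0.08, 0.03 and 0.09 for 301 to 500 bases. They were 0.11, -0.01 and -0.12 above 16000 bases. Which step gave the length trend was not tested.

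**Figure D3:**
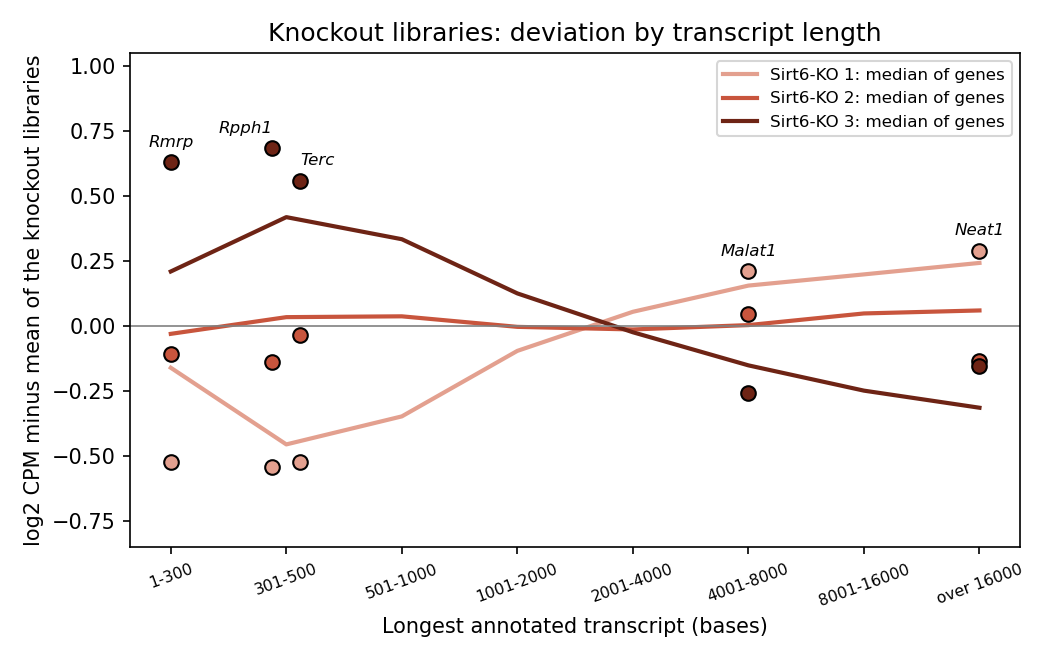
Deviation of each knockout library from the knockout mean of log2 CPM against the length of the longest annotated transcript (bases, in bins); lines are medians of the tested genes in a bin and circles are the RNAs, in the colour of their library. For genes of 301 to 500 bases the medians were -0.46 in replicate 1 and 0.42 in replicate 3, and Rmrp, Rpph1 and Terc lie on the same sides.

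The genes most like each RNA were taken as the 3 with the highest Pearson correlation of log2 CPM over the 6 libraries. Only genes averaging 5 CPM or more were searched. The points share their libraries and groups, and no p is given. With 6 points and many genes searched, a high r can turn up for any profile, so the names are a description. For Rpph1 the closest was its copy Rprl3 (r = 0.998), then Pxmp4 (0.996) and Med11 (0.994), and for Rmrp they were Trmt10b (0.999), Nenf (0.997) and Med11 (0.994). Terc was closest to D17Wsu104e (0.997), Nabp2 (0.997) and Cib1 (0.996), and Rn45s to Elk4 (0.999), Aim1l (0.998) and Tmem79 (0.998). Malat1 was closest to C030046E11Rik (0.991), Aqr (0.991) and Man1a2 (0.990), and Neat1 to Zscan25 (0.992), Slc43a2 (0.988) and Armcx4 (0.988). Among the RNAs themselves r was 0.989 for Rmrp with Rpph1, 0.945 for Rmrp with Terc and 0.950 for Rpph1 with Terc. It was 0.611 for Malat1 with Neat1 and 0.786 for Rn45s with Neat1. With Rmrp, Rpph1 and Terc it was -0.739, -0.785 and -0.897 for Malat1 and -0.808, -0.820 and -0.763 for Neat1. Rmrp, Rpph1 and Terc thus varied together over these 6 libraries. All 3 were highest in Sirt6-KO replicate 3 and followed the trend on transcript length. The part of either in these r was not tested.

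The proteins that make, process or bind these RNAs were tested for the same contrast; their values did not choose the RNAs, but the 9 lists were written with earlier results of these data known. Of 146 protein genes tested, 19 rose and 46 fell in Sirt6-KO (adjusted p under 0.05 over all genes tested, edgeR), or 44.5%, with a median log2 fold change of -0.09, against 55.7% and 0.01 for all tested genes. In what follows, a number in brackets after a log2 fold change and its SE is edgeR's adjusted p unless another test is named. Ranges are of the adjusted p over 15 alternative settings, which include the tests of DESeq2 and limma-voom. The count that rose depended on single libraries: it was 9, 8 and 12 without WT replicates 1, 2 and 3, and 40 and 11 without Sirt6-KO replicates 1 and 2. With total counts as the scaling, under which the median log2 fold change of all genes was 0.13 higher, 32 rose; among all calls, 62.2% were then higher in the knockout, against 50.1%.

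Of the proteins of RNase P and RNase MRP, the enzymes of Rpph1 and Rmrp, 1 of 11 rose and 1 fell. Rpp40 rose from 25.4 ± 1.26 to 52.0 ± 10.4 CPM (SD, n = 3), a log2 fold change of 1.03 ± 0.14 (SE) with an adjusted p of 0.000117 in edgeR. Rpp25 fell from 61.9 ± 5.11 to 37.0 ± 2.74 CPM, a log2 fold change of -0.74 ± 0.10 with an adjusted p of 0.000130. The largest subunit Pop1 had a log2 fold change of -0.19 (edgeR adjusted p = 0.0922), and it was called without Sirt6-KO replicate 1 (-0.21, 0.0279) or with the length trend removed (-0.21, 0.0126; range 0.0126 to 0.625). The list's median was 0.17. Its calls changed with single libraries, to 7 higher and 2 lower without Sirt6-KO replicate 1, and to 2 lower without Sirt6-KO replicate 3. Total counts gave 4 higher, and removal of the length trend gave 2 higher and 3 lower.

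RNA polymerase III, which makes Rmrp and Rpph1, had 4 genes higher and 5 lower of 23 (39.1% called, median 0.04). Of the alternative subunits Polr3g and Polr3gl, Polr3g rose from 84.5 to 111 CPM (log2 fold change 0.40 ± 0.09, edgeR adjusted p = 0.00433) and Polr3gl fell from 15.4 to 6.93 CPM (-1.15 ± 0.12, 1.38e-05). Maf1, a repressor of the polymerase, rose by a log2 fold change of 0.66 (adjusted p = 0.000160). Brf2 and Brf1, initiation factors, fell by 0.47 and 0.44 on the log2 scale (adjusted p = 0.00412 and 0.00613); with total counts Brf1 had an adjusted p of 0.0573, the highest of a range from 0.000310. Zfp143, an activator at such promoters, rose by 0.32 (0.0161), a call that was lost without WT replicate 1 (0.0896), WT replicate 2 (0.0793) or Sirt6-KO replicate 2 (0.0614; range 0.00286 to 0.0896). The catalytic subunit Polr3a had a log2 fold change of -0.13 (adjusted p = 0.402), and -0.26 (0.0242; range 0.0242 to 0.995) without Sirt6-KO replicate 1. Without WT replicate 1 or 2 the list had 2 genes higher, without Sirt6-KO replicate 1 it had 9, and with total counts 2 were lower.

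RNA polymerase I, which makes the 45S precursor, had 4 genes higher and 4 lower of 19 tested (42.1%, median 0.03); Taf1a was not among the tested. The catalytic subunit Polr1a fell from 266 ± 8.87 to 189 ± 35.2 CPM (SD, n = 3; log2 fold change -0.49 ± 0.13, edgeR adjusted p = 0.00783), and with total counts it was at -0.36 (0.0571; range 1.73e-05 to 0.0571) and with the length trend removed at -0.17. The subunit Znrd1 fell by 0.67 on the log2 scale (0.00630), and the promoter factor subunit Taf1c fell by 0.61 (0.00399). Its partner Taf1b rose by 0.62 (0.000934), and the polymerase subunit Polr1e rose by 0.52 (0.00104). Polr2h, shared by all 3 nuclear polymerases, rose by 0.47 (0.0338), and this call was lost without any of the libraries other than Sirt6-KO replicate 1: the adjusted p was 0.0994, 0.0827 and 0.0679 without WT replicates 1, 2 and 3, and 0.103 and 0.147 without Sirt6-KO replicates 2 and 3 (range 3.65e-05 to 0.147). The list had 2 genes higher in each of these 5 cases and 7 without Sirt6-KO replicate 1, and with total counts 2 were lower. The called genes of this polymerase stood on both sides.

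Genes for processing of the ribosomal precursor had 7 higher and 12 lower of 37 (51.4%, median -0.05). Nucleolin (Ncl), an abundant nucleolar protein that binds the precursor, fell from 1099 ± 64.3 to 361 ± 10.2 CPM (SD, n = 3; log2 fold change -1.60 ± 0.11, edgeR adjusted p = 7.26e-07). The exosome nucleases Dis3 and Exosc10, which degrade and trim RNA from the 3′ end, fell by 1.32 and 0.65 on the log2 scale (1.02e-06 and 9.32e-05). Pes1, needed for the large subunit, rose by 0.52 (0.000835). The 5′ exonuclease Xrn2 rose by 0.33 (0.0109), which was lost without WT replicate 2 (0.0841) or Sirt6-KO replicate 2 (0.0512; range 0.00184 to 0.0841). Utp15 rose by 0.27 (0.0216), which was lost without WT replicates 1, 2 or 3 (0.0743, 0.127 and 0.0708) or Sirt6-KO replicate 2 (0.0608; range 0.00164 to 0.127). The count higher was 2, 1 and 3 without WT replicates 1, 2 and 3 and 2 without Sirt6-KO replicate 2.

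The partners of Terc in telomerase had 1 gene higher and 4 lower of 14 (35.7%, median -0.12). The catalytic subunit Tert was at 17.2 ± 1.23 CPM in WT and 17.7 ± 5.35 CPM in Sirt6-KO (SD, n = 3; log2 fold change 0.05 ± 0.18, edgeR adjusted p = 0.848). Dyskerin (Dkc1), which holds Terc in the particle, fell from 289, 271 and 296 CPM in WT to 216, 232 and 219 CPM in Sirt6-KO (log2 fold change -0.36, 0.00739), with an adjusted p of 0.0790 under total counts, the highest of a range from 0.000451. Naf1, an assembly factor, fell by 0.94 on the log2 scale (3.98e-05), Tgs1, which modifies the cap, fell by 0.82 (5.28e-05), and Zcchc8, part of a nuclear RNA decay complex, fell by 0.59 (0.000303). Shq1, the chaperone of dyskerin, rose by 0.36 (0.00607), or 0.57 with the length trend removed; without Sirt6-KO replicate 1 there were 2 genes higher. Of 7 genes for shelterin, which covers telomeres, 2 rose and 3 fell (71.4%, median -0.05). Terf1, Terf2ip and Terf2 fell by 0.84, 0.65 and 0.62 on the log2 scale (adjusted p = 4.05e-05, 0.000217 and 0.000438). Pot1a rose by 0.53 (0.000567), and Tinf2 rose by 0.32 (0.0216), which was lost without WT replicate 1 (0.0985) or 2 (0.110; range 0.00461 to 0.110), leaving 1 gene higher.

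The paraspeckle proteins, which gather on Neat1, included 10 genes lower and 0 higher of 17 (58.8%, median -0.38) in edgeR; 2 were higher at an unadjusted p under 0.05, 1 in DESeq2 and 0 in limma-voom. Sfpq, a core protein of paraspeckles, fell from 430 ± 14.0 to 229 ± 12.8 CPM (SD, n = 3; log2 fold change -0.91 ± 0.10, adjusted p = 1.93e-05). Rbm14 fell by 1.16 on the log2 scale (2.62e-05) and Pspc1 fell by 0.43 (0.00203). Nono, the partner of Sfpq, had a log2 fold change of 0.24 (adjusted p = 0.0786, 0.0136 to 0.277 over the 15 alternatives), and it was called higher with total counts (0.0143), in DESeq2 (0.0487), without Sirt6-KO replicate 1 (0.0136) and with the length trend removed (0.0424). Without Sirt6-KO replicate 1 or with total counts, 2 genes were higher. Neat1 itself was at a log2 fold change of -0.31, and at 0.34 with the length trend removed.

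The nuclear speckle proteins, where Malat1 resides, had 6 lower and 0 higher of 13 (46.2%, median -0.27) in edgeR; 0 were higher at an unadjusted p under 0.05, in DESeq2 or in limma-voom, and 1 was higher without Sirt6-KO replicate 1 or with total counts. Srrm2, a core protein of speckles, fell from 749 ± 84.2 to 187 ± 30.9 CPM (SD, n = 3; log2 fold change -1.998 ± 0.144, adjusted p = 1.27e-06), while Malat1 had a log2 fold change of 0.02. Srrm1 and Pnn fell by 1.11 and 0.84 on the log2 scale (1.06e-05 and 3.03e-05). Of 5 genes that process or bind the ends of Malat1 and Neat1, 1 fell and 0 rose (20%, median -0.18) in edgeR, with 0 higher at an unadjusted p under 0.05, in DESeq2 and in limma-voom. The lower gene was Mettl16, which binds the Malat1 triple helix, at -0.36 (adjusted p = 0.00447); with total counts it was at -0.24 (0.0698) and with the length trend removed at 0.10 (0.412; range 0.000555 to 0.412). Without Sirt6-KO replicate 1 or 3, 2 of the 5 were lower, and with total counts 0 were.

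**Figure D4:**
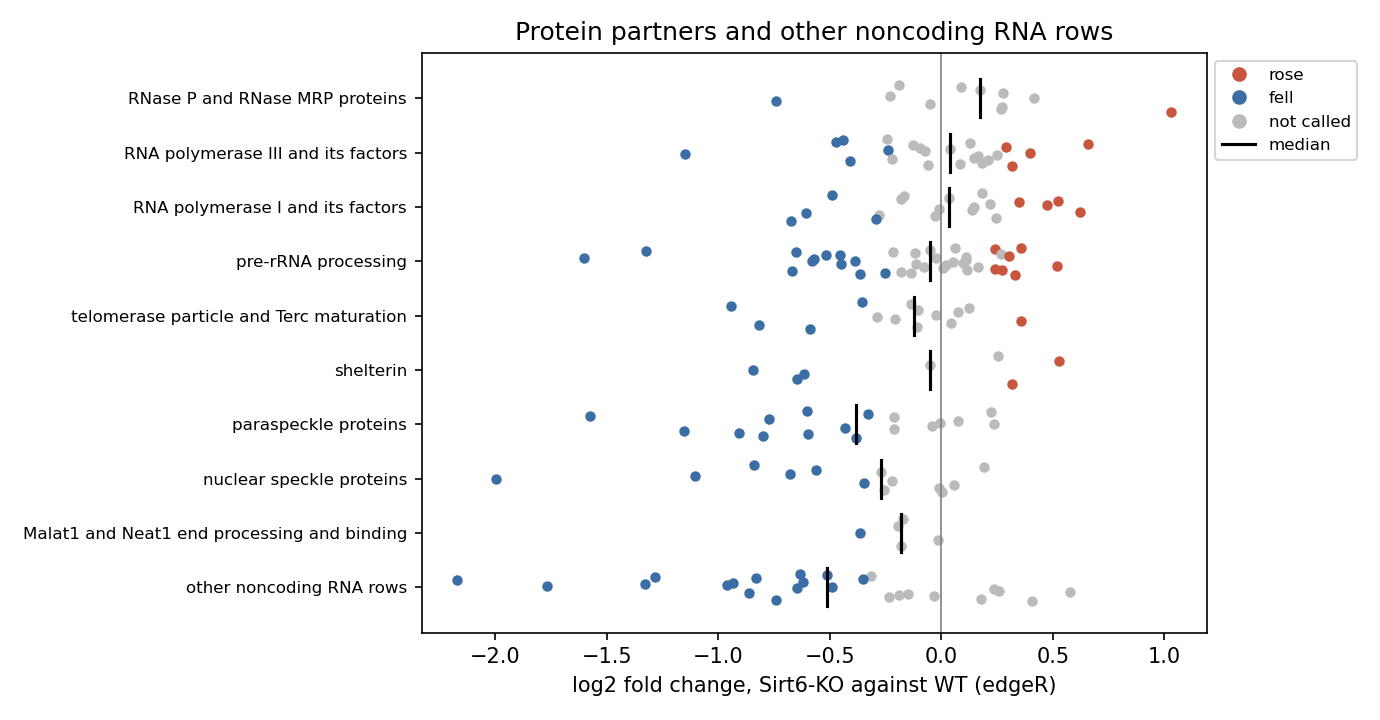
Log2 fold change, Sirt6-KO against WT, of each tested gene in the lists of partners and other noncoding RNAs (edgeR; coloured where adjusted p was under 0.05, with the list's median as a bar). The 10 called paraspeckle genes, the 6 called speckle genes and the 15 called noncoding RNAs all lie below 0, and the called polymerase genes lie on both sides.

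Other noncoding RNA rows, from a list of 33 of which 25 were tested, had 15 lower and 0 higher (60%, median -0.51) in edgeR; 1 was higher at an unadjusted p under 0.05 and 0 in DESeq2 or limma-voom. Without Sirt6-KO replicate 1, 3 were higher, and 2 were with total counts. Mir17hg, the host of a microRNA cluster, fell from 166 ± 8.65 to 48.7 ± 3.21 CPM (SD, n = 3; log2 fold change -1.77 ± 0.10, adjusted p = 2.53e-07). Dleu2 fell by 1.29 on the log2 scale (7.24e-06), and the imprinted RNAs H19 and Meg3 fell by 2.17 and 1.33 (1.02e-05 and 2.51e-05), with Meg3 at -0.83 once the length trend was removed. Rprl3 had a log2 fold change of 0.58 (adjusted p = 0.0531), at 979 ± 63.5 CPM in WT and 1462 ± 596 CPM in Sirt6-KO, beside 0.61 for Rpph1. Malat1 at 0.02 and Neat1 at -0.31 (0.34 with the length trend removed) were both above the median of this list.

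**Figure D5:**
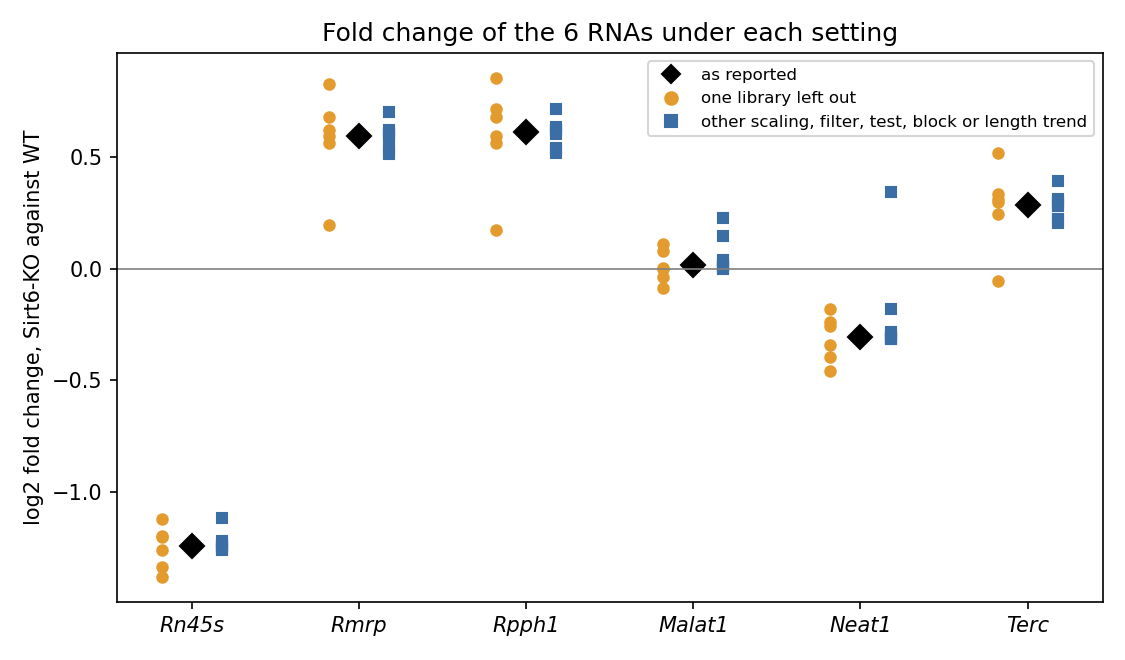
Log2 fold change, Sirt6-KO against WT, of the 6 RNAs as reported (diamonds), with 1 library left out (circles) and with another scaling, filter, test, block or the length trend removed (squares). Rn45s stays between -1.38 and -1.12, Rmrp and Rpph1 come down to 0.20 and 0.17 without Sirt6-KO replicate 3, and Malat1, Terc and Neat1 have values on both sides of 0.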

How the data were processed

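The authors' deposited table of whole-number counts per gene symbol, with no normalization, was used for 3 wild-type and 3 Sirt6-KO libraries (20107037 to 29267115 counts each). The 3 libraries without glucose were not analysed here. The submitters' processing notes name TopHat2 2.0.10, HTSeq 0.6.1, DESeq2 and mm9; the annotation, the strand setting, the handling of reads that match several copies and the selection of RNA go unnamed there (not given in the sources used here), and all of these can move the counts of Rn45s, Rpph1 and its copies. The authors' deposited table of their own comparison holds, per the file headers, a base mean signal, log2 fold changes, a score (the Wald statistic) and p-values; only its log2 fold changes are quoted.

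Shares are counts over the library total, with 95% Wilson intervals. Genes were tested with edgeR 4.0.16 in R 4.3.3 (TMM, filterByExpr, glmQLFit and glmQLFTest, two-sided), with Benjamini-Hochberg adjustment over 14988 genes and a threshold of 0.05. The standard error is the log2 fold change divided by the square root of F, and log2 CPM used a prior count of 2. All pairs of replicates differed by more than sampling noise (chi-square over degrees of freedom from 3.73 upward). The RNAs and lists were chosen with earlier results of these data known. Named partners are the called genes with the 3 smallest adjusted p in each direction of a list (4 for other noncoding RNAs) and Tert, Dkc1, Polr1a, Polr3a, Sfpq, Nono, Pspc1 and Pop1; a gene that this rule names is not reported here. Transcript lengths came from GENCODE M21 by symbol for 98.9% of tested genes, and sequences were aligned with Biopython 1.88. Alternatives were DESeq2 1.42.0 and its size factors, limma-voom (limma 3.58.1), total counts, library sizes without the 6 RNAs, no filter, a mean of at least 1 CPM, the replicate number as a block, each library left out, shares without Rn45s in the total and, added after the data were seen, removal of a loess trend (span 0.5) on transcript length.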

Additional observations from a re-analysis of the deposited data

How the results depend on the processing

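The log2 fold change of Rn45s ran from -1.38 to -1.12 with 1 library left out, and was -1.12 with total counts. The same ranges were 0.20 to 0.83 for Rmrp, 0.17 to 0.85 for Rpph1, -0.09 to 0.11 for Malat1, -0.46 to -0.18 for Neat1 and -0.06 to 0.52 for Terc. With the length trend removed Malat1 was at 0.23, Neat1 at 0.34 and Mettl16 at 0.10 on the log2 scale; Rn45s, with no length, gave no value there. The count of protein partners that rose was 32 with total counts and 8 to 40 with 1 library left out, and 40 to 56 fell; over all genes 3580 to 4961 rose and 3352 to 4915 fell. With Rn45s left out of the library total, the wild-type shares were 0.822% for Rmrp, 0.820% for Rpph1, 0.292% for Malat1 and 0.0125% for Terc. The Rpph1 shares of the groups then overlapped. The cause of these shifts was not tested, except that the last follows from a smaller total. Depth limits Neat1 and Terc most, since their shares carry the widest counting intervals.

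The replicate numbers were not taken as pairs. Deviations of same-numbered libraries from their group means correlated at 0.208, -0.0250 and 0.201, and not every library correlated best with its own number. WT replicate 1 with Sirt6-KO replicate 3 gave -0.207, and WT replicate 3 with Sirt6-KO replicate 1 gave -0.216. What equal replicate numbers share is not stated in the labels. With the replicate block, 4670 genes rose and 4682 fell, against 4182 and 4163 without it; the log2 fold changes were -1.25 for Rn45s, 0.51 for Rmrp, 0.52 for Rpph1, 0.01 for Malat1, -0.31 for Neat1 and 0.22 for Terc. Under the block 3 proteins of RNase P and RNase MRP rose and 2 fell, and 2 of the other noncoding RNAs rose.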
